A study of Mus musculus with 7 samples.

Results

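The Serpina genes described here are 9 mouse genes of the serine protease inhibitor (serpin) superfamily, clade A: Serpina1a, Serpina1b, Serpina1c, Serpina1d, Serpina1e, Serpina3k, Serpina3m, Serpina3n and Serpina6. Their probes were found by the RefSeq accession that the scanner files give for each probe. Of the 9 genes, 8 had at least 1 such probe, out of 32451 genes on the array, and Serpina1b had none. Here and below, an accession without a symbol is counted as a gene of the array. These 8 genes were measured by 12 probes. The authors' deposited table of log2 values covers 1488 genes, and 4 of the 9 are among them: Serpina1a, Serpina1d, Serpina1e and Serpina3n.

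Liver RNA was compared between male C57/BJ mice given a high-fat diet (HFD, n = 3; D12331, ResearchDiets) and male C57/BJ mice given control chow (n = 4; Provimi Kliba). Mice in both groups were assigned to their diet at 6 weeks of age, stayed on it for 20 weeks and were 26 weeks old when the livers were taken. The labels name no genetic change in either group. They do not say whether samples were pooled over animals, so the p-values measure the spread between these samples.

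Clade A serpins are secreted mainly by hepatocytes and circulate in plasma. An inhibitory serpin offers a protease a reactive loop as bait, and cleavage of the loop traps the protease in a permanent complex. The Serpina1 genes encode mouse α1-antitrypsins, whose human counterpart SERPINA1 protects tissue from neutrophil elastase. The Serpina3 genes are the mouse relatives of human SERPINA3, α1-antichymotrypsin, and Serpina3n is an acute-phase gene in mouse liver. Serpina6 encodes corticosteroid-binding globulin, which carries glucocorticoids in blood and does not inhibit proteases.

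The Serpina1 genes are near-copies, and their promoters are printed to show how alike they are. RefSeq promoter sequences (assembly GRCm38.p6, 250 bases before to 50 bases after each annotated start) were held for 6 of the 9 genes, and those of Serpina3k, Serpina3m and Serpina6 were not used here. A 120-base stretch of each Serpina1 promoter is given 5′ to 3′ on the minus strand, with a 12-base stretch that all 5 share in capitals:
Serpina1a, chr12:103863581-103863700: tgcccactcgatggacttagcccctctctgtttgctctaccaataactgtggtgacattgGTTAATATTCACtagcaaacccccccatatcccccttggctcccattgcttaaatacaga
Serpina1b, chr12:103738156-103738275: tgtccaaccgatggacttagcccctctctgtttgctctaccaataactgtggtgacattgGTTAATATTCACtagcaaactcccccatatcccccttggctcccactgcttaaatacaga
Serpina1c, chr12:103904918-103905037: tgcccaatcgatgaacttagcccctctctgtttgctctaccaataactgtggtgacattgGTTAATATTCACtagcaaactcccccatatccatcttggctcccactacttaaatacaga
Serpina1d, chr12:103773590-103773709: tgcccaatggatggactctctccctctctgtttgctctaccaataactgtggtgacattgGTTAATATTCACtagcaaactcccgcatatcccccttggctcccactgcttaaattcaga
Serpina1e, chr12:103956916-103957035: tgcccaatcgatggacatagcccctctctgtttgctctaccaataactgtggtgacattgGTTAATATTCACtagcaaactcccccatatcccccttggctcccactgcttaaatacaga

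These 5 stretches carried the same base at 103 of 120 positions. Over the 10 pairs, the number of differing bases ran from 3 (Serpina1b and Serpina1e) to 11 (Serpina1c and Serpina1d), an identity of 97.5% to 90.8%. GTTAATATTCAC, searched on both strands like the motifs that follow, was found in 5 of 32851 promoters of the same length (0.0152%), and those 5 were the Serpina1 promoters from which its letters were read. The glucocorticoid receptor half-site AGAACA was also found in all 5, on the opposite strand, and in 19.0% of all promoters. The searches covered the whole promoters, and in all 5 this match lies before the printed stretch. The STAT motif TTCNNNGAA and the NF-κB motif GGGNNTTNCC were found in 8.30% and 4.79% of all promoters and in 0 of the 5 whole Serpina1 promoters.

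The Serpina3n promoter (chr12:104406458-104406757, plus strand) is printed because Serpina3n had the largest diet difference of the 4 genes in the table. AGAACA and a match to GGGNNTTNCC are in capitals:
Serpina3n: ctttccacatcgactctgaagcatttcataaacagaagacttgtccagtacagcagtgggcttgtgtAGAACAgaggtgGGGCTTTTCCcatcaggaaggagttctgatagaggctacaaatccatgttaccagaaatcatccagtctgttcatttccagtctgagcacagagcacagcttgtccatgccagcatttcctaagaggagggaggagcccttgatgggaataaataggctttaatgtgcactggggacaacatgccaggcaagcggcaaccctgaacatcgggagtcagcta

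AGAACA lay 183 to 178 bases before the annotated start and GGGCTTTTCC 171 to 162 bases before it. TTCNNNGAA was not found in this window. These matches describe the letters and do not show that a factor binds there.

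Before the diets were compared, the scanner files were set against the deposited table. The files labelled HFD matched their own columns (r = 0.99992 to 0.99994 across probes), whereas those labelled chow matched theirs at r = 0.58001 to 0.58896. Each of the 4 files labelled chow correlated more with another column than with its own (highest r from 0.618 to 0.628). The scanner files labelled chow were therefore not used for diet differences, which rest on the table alone. The table's chow values thus have no matching scanner file here, and their tissue and processing could not be checked. Chow livers are named so by the labels only. At all 1615 probes of the table the values of the 3 HFD and 4 chow samples do not overlap, so the table is selected on this comparison and its p-values are not independent evidence. All HFD scans share 1 day, and for the chow values of the table no scan day is known, so diet and scan day cannot be told apart. No spot was saturated, and on the HFD arrays 57.0% to 66.8% of spots passed the scanner's flag for a signal well above background. Of 8 measured hepatocyte markers outside the Serpina genes, 8 were above background on all 3 HFD arrays, so the label of liver holds for these arrays. In the 4 scanner files labelled chow, 3 of these 8 markers, Alb, Apoa1 and Cps1, were above background in none. Of the others, Apob, Fgb, Hnf4a and Cyp3a11 were above background in all 4 and Ttr in 3. The markers as a set therefore did not bear out the label of liver for those files.

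Serpina3n had the largest diet difference of the 4 genes in the table. Its probe (A_51_P159453) read 12.68, 12.36 and 12.97 on the log2 scale in HFD livers, against 15.42, 13.93, 14.73 and 15.01 in chow livers. Every HFD sample lay below every chow sample, with a gap of 0.96 between the groups. The mean was 12.67 ± 0.31 in HFD livers (SD, n = 3) and 14.77 ± 0.63 in chow livers (SD, n = 4). This was a difference of -2.10 (SE 0.34), or 4.29-fold lower on HFD, and it passed the test (limma adjusted p = 0.0397). The call was lost without any 1 sample other than chow replicate 2 (limma adjusted p from 0.0676 to 0.158). In bulk liver, fewer cells of a type and less RNA per cell cannot be told apart.

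Among the Serpina1 genes, Serpina1a passed the test, as the only one of the 3 in the table. Serpina1a, Serpina1d and Serpina1e each have 2 probes, of which only 1 is in the table. Each diet difference below therefore rests on 1 probe, and the other probe of the gene has no diet value. The Serpina1a probe in the table (A_55_P2010312) read 17.89, 17.87 and 18.03 in HFD livers, against 18.47, 18.38, 18.47 and 18.47 in chow livers. The groups do not overlap, and their means were 17.93 ± 0.09 on HFD and 18.45 ± 0.04 on chow (SD, n = 3 and n = 4). The difference was -0.52 (SE 0.09), or 1.43-fold lower (limma adjusted p = 0.0457). With quantile normalization of the 7 columns it was 0.15, on the other side of 0, and not called (limma adjusted p = 1.0). Leaving out any 1 of the 7 samples ended this call (limma adjusted p from 0.0681 to 0.181).

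Serpina1d and Serpina1e, also α1-antitrypsin genes, had differences of similar size that did not pass. The Serpina1d probe (A_66_P121117) read 17.67, 17.64 and 17.83 in HFD livers, against 18.27, 18.07, 18.12 and 18.26 in chow livers. That is a difference of -0.47 (SE 0.10; limma adjusted p = 0.0724). The Serpina1e probe (A_55_P2010292) read 18.45, 18.51 and 18.71 in HFD livers, against 19.0, 19.0, 18.97 and 18.97 in chow livers. Here the difference was -0.43 (SE 0.10; limma adjusted p = 0.0783). At both probes the HFD values all lay below the chow values, with gaps of 0.24 and 0.26.

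**Figure D1:**
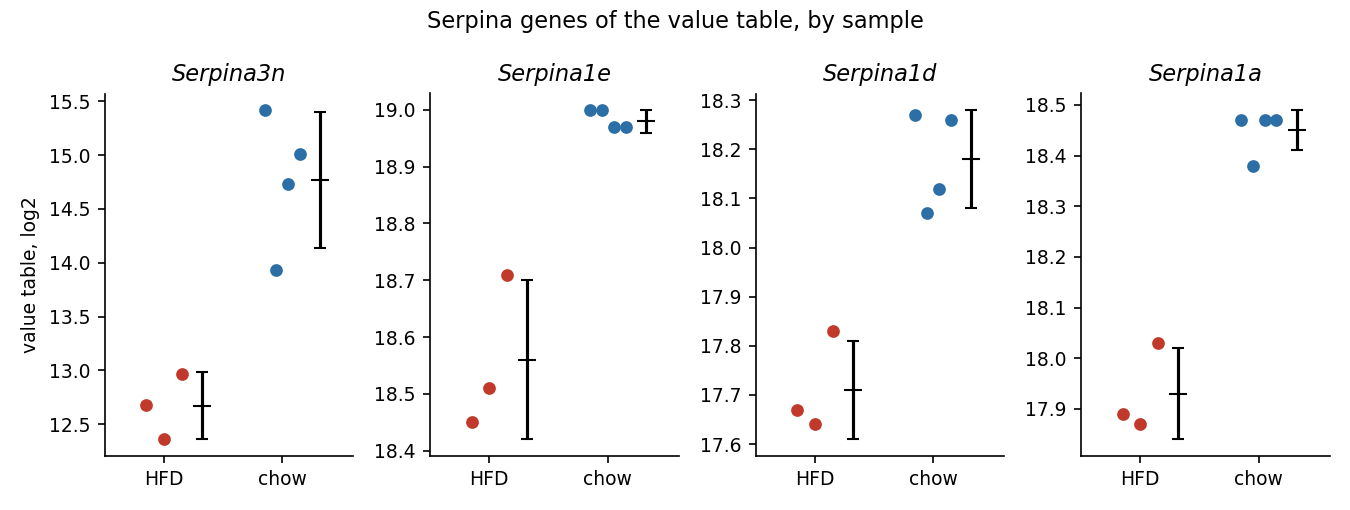
Log2 value in the authors' deposited table for Serpina3n, Serpina1e, Serpina1d and Serpina1a, HFD samples left of chow samples; points are samples and bars the mean ± SD (n = 3 HFD, n = 4 chow). Each panel has its own scale, which does not start at 0. The groups do not overlap at any of the 4 genes, and the gap runs from 0.24 for Serpina1d to 0.96 for Serpina3n.

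Of the 8 measured genes, 2 were therefore called lower on HFD in the deposited values (1, Serpina3n, with quantile normalization) and 0 higher. Only the 4 genes in the table had a diet value and could be called, and none of these 4 was higher at an unadjusted limma p under 0.05. Over all genes of the array, 0.810% were called lower and 1.0% higher. Among the 1488 genes of the table, 17.7% were called lower. The deposited table held 4 of the 8 measured genes and 4.59% of all genes on the array. Because the table was selected on the comparison, presence in it already means that the groups do not overlap.

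Whether the 4 genes differed from each other in their response was tested on the difference of the log2 values of 2 genes within each sample. With 7 samples the exact permutation test over 35 splits cannot give a p below 0.0571, and 6 pairs were compared. The HFD minus chow difference of Serpina3n minus that of Serpina1e was -1.67 (SE 0.34), minus that of Serpina1d -1.64 (SE 0.30) and minus that of Serpina1a -1.59 (SE 0.32). In each of these 3 pairs the groups did not overlap and the exact two-sided permutation p was 0.0571, the smallest possible (0.114 adjusted over the 6 pairs). Each of the 4 genes is in the table with groups that do not overlap. The separation of these pairs and its p are therefore not independent of the table's selection. Among the Serpina1 genes the differences of differences were small: 0.04 (SE 0.06) for Serpina1e minus Serpina1d, 0.09 (SE 0.05) for Serpina1e minus Serpina1a and 0.05 (SE 0.04) for Serpina1d minus Serpina1a. None of these 3 passed (exact permutation p = 0.571, 0.114 and 0.514; adjusted 0.571, 0.171 and 0.571). A p that misses the threshold does not show that these genes respond alike. The Serpina1 probes may also bind each other's transcripts, since probe sequences were not used here and cross-hybridization was not tested, so their values are uncertain as measures of single genes.

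Serpina1a, Serpina1c, Serpina1d and Serpina1e were measured by 7 probes, of which 3 are in the table and 4 are not. The second Serpina1a probe read 9.19, 9.88 and 9.69 on HFD replicates 1, 2 and 3, as log2 processed signal minus the 75th percentile of the array. The Serpina1c probe, the only one of its gene, read 8.76, 9.34 and 9.28. These probes have HFD levels alone, and no diet difference can be given for Serpina1c. All 7 probes exceeded background clearly on the 3 HFD arrays and in the 4 scanner files labelled chow. Since those chow files did not match the table's chow columns, their signals are not read as chow liver levels.

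No Serpina1 spot was flagged as saturated, but several were close to the scanner's limit. The 4 probes outside the table reached 39.4% to 99.0% of the saturation value on the HFD arrays, and those in the table, 3 in all, 24.4% to 58.6%, by median spot signal. At the top of that range the second Serpina1a probe read 77.1%, 95.9% and 99.0%. What brightness does to the size of a Serpina1 diet difference was not tested.

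**Figure D2:**
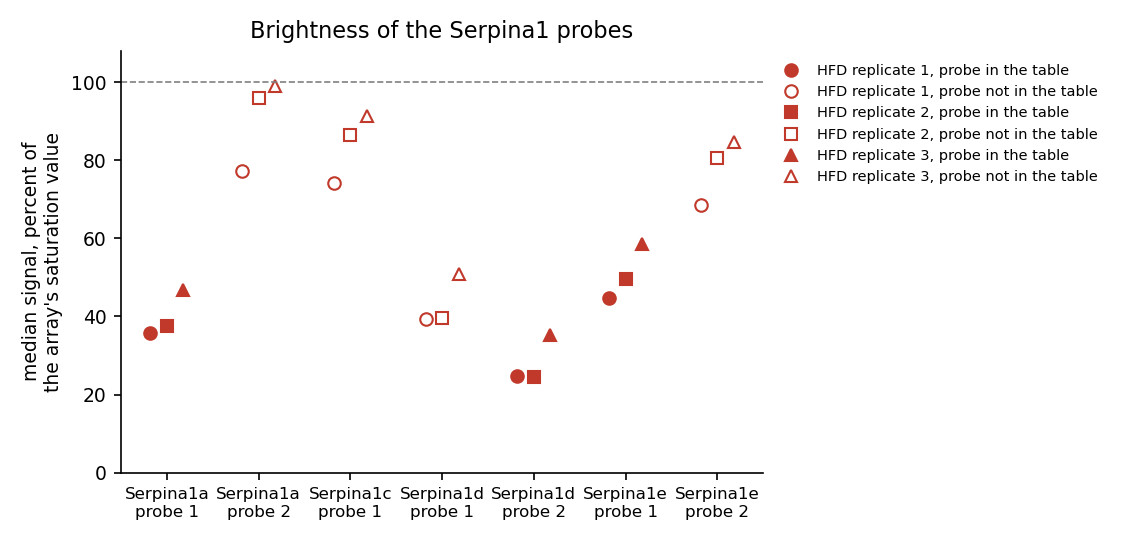
Median spot signal of the 7 Serpina1 probes as a percent of the saturation value on each of the 3 HFD arrays, by whether the probe is in the authors' deposited table. The 3 probes in the table lie between 24.4% and 58.6%, and the 4 others between 39.4% and 99.0%.

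The spread of the Serpina1 probes among HFD livers depended on which values were read. In the table the SD over the 3 HFD samples was 0.09 for Serpina1a, 0.10 for Serpina1d and 0.14 for Serpina1e. The same probes had SDs of 0.33, 0.33 and 0.37 when the scanner signals were scaled to the array's 75th percentile. Serpina3n had 0.31 in the table and 0.33 from the scanner signals. The table's chow values of Serpina1a include 3 that are identical to 3 decimals (18.47 when rounded to 2). By the same rounding, at least 3 identical chow values were found at 2 of the table's 1615 probes (0.124%), and at 1 of the 26 probes with a mean chow value above 17.

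Members outside the table could be followed across the 3 HFD arrays only. Serpina3k, also called contrapsin, an inhibitor of trypsin-like proteases, read 7.81, 8.41 and 8.93 on HFD replicates 1, 2 and 3. Serpina3m read 5.90, 6.43 and 7.11. Both differed among HFD livers by more than 1 log2 unit (range 1.12 and 1.21), with the highest value on replicate 3. With quantile normalization of the 3 arrays the ranges were 0.67 for Serpina3k and 0.99 for Serpina3m. Neither probe was well above background on any of the 4 scanner files labelled chow, where the log2 processed signal was 2.11 to 2.79 for Serpina3k and 2.83 to 4.18 for Serpina3m. Those files did not match the table's chow columns. Of 8 hepatocyte markers, Alb, Apoa1 and Cps1 were not above background in them either, while the others were in 3 or 4 of them. The Serpina3n probe and both Serpina6 probes were above background in all 4. The Serpina3k and Serpina3m signals in those files are therefore not read as chow liver levels, and no diet difference is given for either gene.

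Serpina6, corticosteroid-binding globulin, had 2 probes, neither in the table. The first read 4.80, 5.39 and 4.70 and the second 2.86, 3.31 and 2.57 on HFD replicates 1, 2 and 3. Both were highest on replicate 2, unlike the Serpina3 probes. Serpina3n on the same scale read 2.97, 2.72 and 3.38, highest on replicate 3.

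Across HFD livers, at this scaling, the Serpina probes had larger SDs than the median probe. The median SD over the 3 arrays was 0.33 for the 7 Serpina1 probes (0.32 to 0.37), 0.56 for the 3 Serpina3 probes (0.33 to 0.61) and 0.37 for the 2 Serpina6 probes, against 0.17 for all 21652 probes well above background. All 7 Serpina1 probes were lowest on HFD replicate 1, as were 42.3% of all probes, but with quantile normalization of the 3 arrays only 2 of 7 were, against 36.5% of all probes. The Serpina1 probes measure near-copy genes and may bind each other's transcripts, so they are not 7 separate observations. All 3 Serpina3 probes were highest on HFD replicate 3, as were 40.5% of all probes. With quantile normalization the Serpina1 median SD was 0.09 (0.02 to 0.16), below the 0.17 of all probes, while Serpina3 kept 0.35 and Serpina6 0.36. Quantile normalization gives probes of equal rank the same value on each array. A probe that keeps its rank then has a small SD by construction. The Serpina1 spread thus depends on the scaling.

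HFD replicate 1 also differed from the other HFD arrays in some readings, though not in all. Its negative controls averaged 46.9, against 29.9 and 30.8 on HFD replicates 2 and 3. The log2 of the summed level of 8 hepatocyte markers was 10.72 on HFD replicate 1, 11.17 on replicate 2 and 11.20 on replicate 3. For 9 macrophage and Kupffer cell markers it was 6.13, 5.20 and 5.21. Sums were also highest on replicate 1 for 4 pancreas markers (-0.93, -2.28 and -2.8) and 3 adipose markers (-3.81, -4.99 and -5.07). Of these markers, 3 and 2 were above background on no HFD array. The sums were 3.42, 3.03 and 2.38 for 6 stellate cell markers and -0.62, -0.9 and -1.33 for 4 cholangiocyte markers. They were 1.47, 1.35 and 1.3 for 6 lymphocyte markers. For 5 endothelial markers, at 4.85, 5.08 and 4.86, replicate 1 was not set apart. For 6 neutrophil markers the sums were 2.14, 1.67 and 2.30. The hepatocyte marker Cyp3a11 was highest on replicate 1 (6.86, 6.38 and 6.04). The part of these differences in the Serpina values was not tested.

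**Figure D3:**
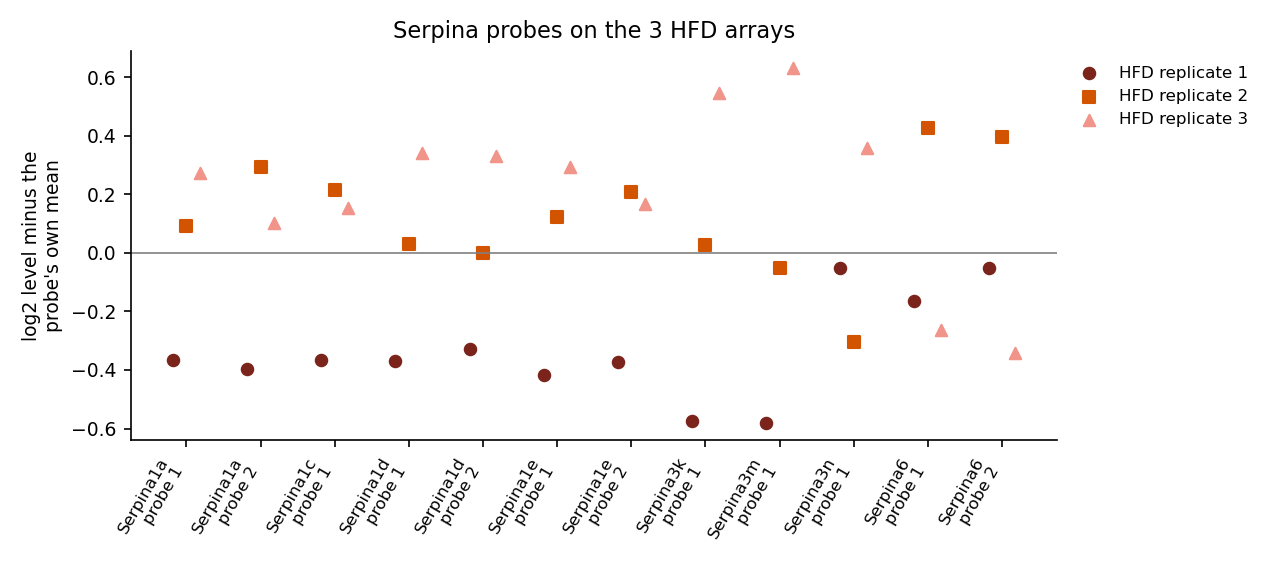
Level of each of the 12 Serpina probes on the 3 HFD arrays, as log2 processed signal minus the 75th percentile of the array, drawn as the difference from that probe's own mean. At this scaling all 7 Serpina1 probes are lowest on HFD replicate 1 (2 of 7 with quantile normalization), all 3 Serpina3 probes are highest on replicate 3 and both Serpina6 probes are highest on replicate 2.

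Few measured cell type markers were in the same table. They were 1 of 8 hepatocyte, 2 of 9 macrophage and Kupffer cell and 1 of 6 stellate cell markers. The others have no diet value, and 4.59% of all genes of the array were in the table. Of the 9 macrophage markers, Gpnmb read 8.64, 7.84 and 5.95 in HFD livers, against 2.31, 2.26, 3.45 and 2.14 in chow livers, all under the lowest detection floor of the HFD columns (3.72), and Itgam was 1.75-fold higher on HFD (limma adjusted p = 0.0253 and 0.0261). Of the 6 stellate cell markers, Col3a1 was in the table with 11.55 ± 0.70 on HFD and 9.95 ± 0.19 on chow and did not pass (SD, n = 3 and n = 4; limma adjusted p = 0.0542). The hepatocyte marker Cps1, the first enzyme of the urea cycle, had 13.25 ± 0.51 on HFD and 14.6 ± 0.27 on chow and did not pass either (SD, n = 3 and n = 4; limma adjusted p = 0.0531). No neutrophil or lymphocyte marker of 6 each was in the table. Of the 6 neutrophil markers, 4 exceeded background clearly on every HFD array, Ngp did so on none, and the log2 of their summed level was 1.67 to 2.30. The part of cell makeup in the Serpina differences was not tested.

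All 9 genes lie in a run of 28 Serpina genes and pseudogenes on chromosome 12 in the RefSeq gene table. In map order it begins with Serpina10, Serpina6, Serpina16 and Serpina1f, goes on with Serpina1b, Serpina1d, Serpina1a, Serpina1c and Serpina1e, then Serpina11, Serpina9 and Serpina12, and ends with the Serpina3 genes, Serpina3n last. Of the 28, 22 had a probe, 18 were well above background on every HFD array and each of the 22 on at least 1. The deposited table held 7 of the 22 (31.8%, against 4.59% of all genes of the array). At all 7 the HFD mean was the lower one in the deposited values, as it was at 687 of the table's 1488 genes. Quantile normalization of the columns turned Serpina1a and Serpina1e to 0.15 and 0.07. Of these 7, 3 passed the test: Serpina10, Serpina1a and Serpina3n (0.810% of all genes and 17.7% of the table's genes were called lower).

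Serpina10, the protein Z-dependent protease inhibitor of coagulation, read 15.42, 15.40 and 15.76 in HFD livers, against 16.88, 16.37, 16.83 and 16.73 in chow livers. It was 2.26-fold lower on HFD (difference -1.18, SE 0.16; limma adjusted p = 0.0292). Serpina11, next to Serpina1e, read 14.28, 14.39 and 14.83 in HFD livers, against 15.67, 15.31, 15.11 and 15.29 in chow livers, and did not pass (limma adjusted p = 0.0704). Serpina9 read 4.88, 5.32 and 7.13 in HFD livers, against 8.76, 8.26, 8.06 and 8.70 in chow livers, with 1 HFD value under the detection floor of 4.93, and did not pass (limma adjusted p = 0.0547). The genes with a diet difference therefore lie on both sides of members that have HFD levels alone. Among the genes of the run outside the table, Serpina4-ps1 differed most between HFD livers on the scanner scale, at 1.28, 2.59 and 4.92, and Serpina3h read 1.18, 1.96 and 3.05. Both are lowest on HFD replicate 1 and highest on replicate 3.

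**Figure D4:**
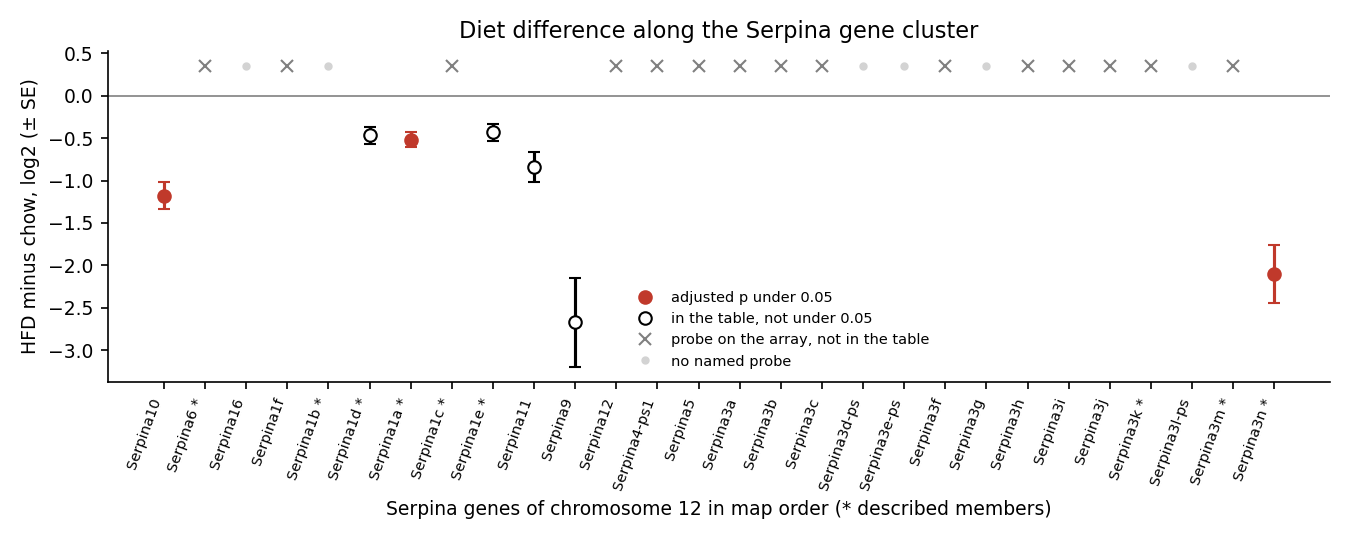
HFD minus chow difference (log2, ± SE) of the Serpina genes of chromosome 12 in map order; genes not in the authors' deposited table and genes with no probe are marked. All 7 genes with a value lie below 0, from -0.43 for Serpina1e to -2.67 for Serpina9, in the deposited values; Serpina1a and Serpina1e lie above 0 under quantile normalization.

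Lists of genes around the serpins were described by their counts; the lists were drawn up with earlier results of these data known. No gene of the table kept its call without chow replicate 1 or without HFD replicate 1. The array-wide shares, 4.59% of genes in the table, 0.810% called lower and 1.0% called higher, are the background for each count. Within the table, 687 of 1488 genes had the lower mean on HFD. Of 26 other serpins measured, 6 were in the table, all lower on HFD, with a median difference of -0.91, against 0.44 for all genes of the table. Serpina9, Serpina10 and Serpina11 are among these 6 and were already counted in the run on chromosome 12. Serpina10 and Serpinb8, an intracellular serpin, passed, Serpinb8 at 1.96-fold lower (limma adjusted p = 0.0417). Serpinf2, which encodes α2-antiplasmin, and Serping1, the C1 inhibitor, had differences of -0.81 and -0.49 and did not pass (limma adjusted p = 0.0513 and 0.0758). Of 17 proteases, targets of clade A serpins among them, 1 was in the table and 0 passed. That was Prtn3, a neutrophil elastase-like protease, at 5.53 ± 1.07 on HFD and 8.55 ± 0.89 on chow (SD, n = 3 and n = 4; limma adjusted p = 0.0623).

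Of 26 acute-phase genes measured, 12 were in the table (4.59% of all genes of the array were), 11 of them lower on HFD. Of the 26, 8 were called lower and 0 higher, against 0.810% called lower over the array and 17.7% within the table. Among them Apcs, serum amyloid P, was 5.86-fold lower (limma adjusted p = 0.0368), and Mt1, Saa1 and Saa2 also passed. With quantile normalization Saa2 and Itih4, an inter-alpha-trypsin inhibitor heavy chain, lost their calls (limma adjusted p = 0.0602 and 1.0), Itih4 with a difference of -0.17. Hamp2 was the one with the higher HFD mean (difference 2.03, limma adjusted p = 0.0596, not called). Of 20 genes of cytokine and STAT3 signalling, which drives acute-phase transcription, 1 was in the table, a share of 5.0% that is near the 4.59% of all genes. That was Lifr, a receptor of the interleukin-6 family, at 11.91 ± 0.63 on HFD and 13.82 ± 0.33 on chow (SD, n = 3 and n = 4), 3.76-fold lower (limma adjusted p = 0.0401).

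Of 19 genes of glucocorticoid handling and response, the hormone that Serpina6 carries, 2 were in the table: Mt1, already named, and Per1, a clock gene that glucocorticoids induce, which rose 2.81-fold on HFD (limma adjusted p = 0.0253). Of 11 genes of growth hormone signalling, 1 was in the table, Igfbp3, 2.23-fold higher on HFD (limma adjusted p = 0.0483). Its call was lost after median centring (limma adjusted p = 0.0782) and after quantile normalization (0.0657). Of 12 hepatocyte transcription factors, 2 were in the table and both fell: Foxa3 by 1.82-fold and Nr5a2 by 1.55-fold (limma adjusted p = 0.0339 and 0.0440).

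Serpins are folded in the endoplasmic reticulum before secretion, and misfolded α1-antitrypsin is a client of its quality control. Of 20 genes of folding and secretion, 4 were in the table, all with the lower mean on HFD, and 2 passed. Derl3, a component of the channel that returns misfolded proteins to the cytosol, was 3.86-fold lower and Dnajb9, a co-chaperone of Hspa5, 1.96-fold lower (limma adjusted p = 0.0422 and 0.0368). Lman1, a cargo receptor for secreted glycoproteins, and Syvn1, the ubiquitin ligase of that pathway, had differences of -0.75 and -1.17 and did not pass (limma adjusted p = 0.0572 and 0.0642).

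The genes whose values followed each member most closely over the 7 samples were read as a description, since every gene of the table separates the diets. Serpina3n was most like Ebna1bp2 (r = 0.997), Apcs (0.995) and Toe1 (0.993), where the median over the genes lower on HFD was 0.892. Serpina1d was most like Lrg1 (0.998), a transcript with no symbol in the table used (0.998) and Spcs2 (0.995), against a median of 0.918. Serpina1e was most like Sec63 (0.997), St7l (0.995) and Cyp2c38 (0.991), against a median of 0.929. The closest for Serpina1a were 3 transcripts with no symbol (0.996, 0.992 and 0.991), against a median of 0.937.

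The signs of the Serpina1a and Serpina1e differences, but not that of Serpina3n, depended on the scaling of the table. With quantile normalization of the 7 columns Serpina1a was at 0.15 and Serpina1e at 0.07, on the higher side in HFD livers, and Serpina1d at -0.03, none of them called. Serpina3n was at -2.12 under the same scaling (limma adjusted p = 0.0333). With each column centred on its median, which moves the median difference of all genes in the table to 0.23 in place of 0.44, all 4 genes were called lower. The share of higher calls among all calls was 55.3% as deposited, 23.3% after centring and 35.4% after quantile normalization.

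**Figure D5:**
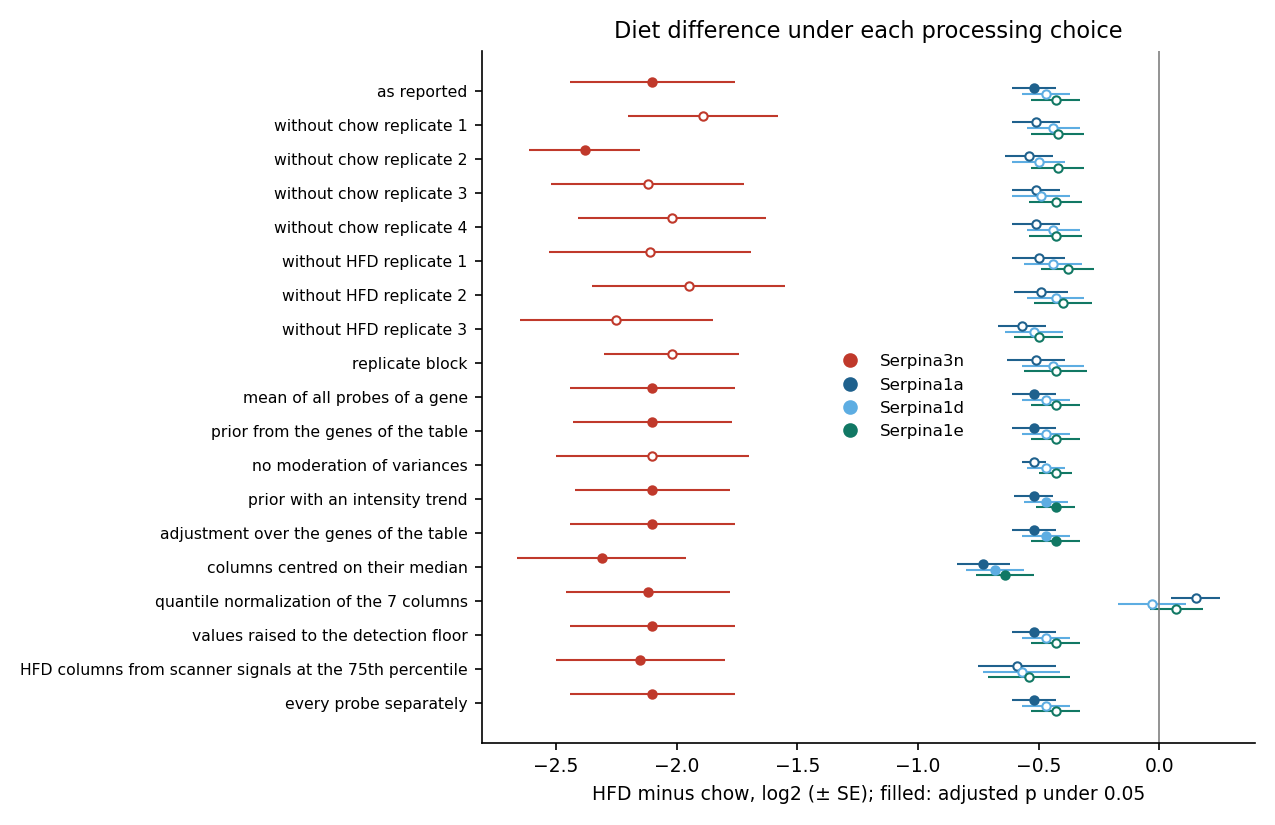
HFD minus chow difference (log2, ± SE) of Serpina3n, Serpina1a, Serpina1d and Serpina1e as reported and under each processing choice; filled points have a limma adjusted p under 0.05. Serpina3n stays between -2.38 and -1.89, and Serpina1a and Serpina1e lie above 0 under quantile normalization, at 0.15 and 0.07.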

How the data were processed

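Cy3-labelled liver cRNA, made from 0.5 μg of RNA, was hybridised to 1-colour Agilent arrays, per the labels' protocols. The scanner files hold spot intensity values, background-subtracted per the file headers (Feature Extraction 10.7.3.1; the submitters' processing notes name 9.1). A table of log2 values covering 1615 probes was deposited too; the sources used here do not say how it was normalized or its probes selected. Probes were named through RefSeq accessions (27234 of 39429; 1288 of the table's 1615). Spots flagged as outliers and control spots were left out.

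The diet comparison was made with limma (3.58.1, R 4.3.3), fitting the deposited log2 values, HFD minus chow, with 1 probe per gene (highest mean). Variances were moderated toward a prior from the 19495 genes that at least 2 HFD arrays measured well above background. Benjamini-Hochberg adjustment covered all 32451 genes, those outside the table given a p of 1, and a gene was called at adjusted p under 0.05. HFD levels are log2 processed intensity minus the array's 75th percentile; the normexp alternative (offset 50) used median signals, since mean signals are not in the files.

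The members and gene lists were chosen with earlier results of these data known. All members were named, up to 4 called genes of each list by size or else the one with the smallest p, and the 3 genes most like each member. The other serpins and list genes given without a call were named after their values were seen.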

Additional observations from a re-analysis of the deposited data

Results flagged for a closer look

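Serpina1a in chow replicate 2 read 18.38 on the deposited log2 scale, while the other 3 chow samples all read 18.47. Its gap to them is the whole range of the group, which passes Dixon's critical value for 4 samples. The other 3 values are identical to 3 decimals, so any different value would pass, however small the gap. The flag was the only one among 18 genes tested. Chance puts about 1 in 20 groups past the critical value, so 1 flag among 18 is near that rate. HFD values of the gene, at 17.87 to 18.03, lie below the 18.38 of chow replicate 2.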

How the results depend on the processing

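Of the 8 measured genes, 2 were called lower as reported. With 1 sample left out the count ran from 0 to 1; it was 0 with the replicate number as a block, 0 without moderation of variances, 1 with quantile normalization and 1 with HFD columns rebuilt from scanner signals (an alternative chosen after seeing the data). It was 4 with an intensity trend, 4 with adjustment over the table alone and 4 with median-centred columns. The count called higher was 0 under every alternative run. Quantile normalization turned Serpina1a to 0.15 and Serpina1e to 0.07; the cause was not tested. Serpina3n kept its sign under all alternatives run; with 1 sample left out it ran from -2.38 to -1.89 and Serpina1a from -0.57 to -0.49. Replicate numbers did not pair the samples: same-numbered deviations correlated at -0.102, 0.138 and 0.0284, and with the block Serpina3n was -2.02 and Serpina1a -0.51 (limma adjusted p = 0.222 and 0.358). All 42 leave-one-out values of the differences between genes kept their direction. Quantile normalization of the HFD arrays changed the range of 7 Serpina1 probes, to 0.17 and 0.03 for Serpina1a, 0.03 for Serpina1c, 0.31 and 0.26 for Serpina1d, and 0.25 and 0.07 for Serpina1e. Over all genes, 325 were called higher and 263 lower. Leaving out chow replicates 1 to 4 in turn gave 0, 48, 4 and 2 higher and 0, 51, 7 and 1 lower, and leaving out HFD replicates 1 to 3 gave 0, 4 and 242 higher and 0, 4 and 208 lower. The counts were 0 and 0 with the block, 6 and 1 without moderation, 552 and 474 with the table's own prior, 677 and 527 with a trend, 801 and 687 with adjustment over the table, 187 and 614 after centring, and 285 and 520 after quantile normalization. All 1488 genes of the table had an unadjusted p under 0.05. The number of arrays limits the precision.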
